A study of Mus musculus with 12 samples.

Results

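The 10 genes described here mark hepatocytes near the portal vein or carry out the urea cycle and the reactions that feed ammonia into it, and they were taken as the 10 of 27022 genes in the deposited count table whose Ensembl identifiers belong to Cps1, Otc, Ass1, Asl, Arg1, Hal, Sds, Gls2, Cdh1 and Hsd17b13. Liver RNA came from 6 female SJL/J mice aged 11 weeks, 3 on a control diet with 50 ppm iron (AIN-93G) and 3 that had been changed at 6 weeks of age from that diet to one with 2% carbonyl iron, the iron-loaded diet. Each diet was fed in its own single cage, hence cage and diet cannot be told apart, and all mice were fasted and perfused before the large lobe was taken. Each RNA was made into 1 Trad-KAPA library, in which fragments of whole transcripts are sequenced, and 1 3’-LEXO library, in which 1 fragment near the 3’ end of each transcript is read, giving 12 libraries.

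The urea cycle converts ammonia, which is toxic, into urea, and it runs in the liver across mitochondria and cytosol. Its enzymes are most abundant in periportal hepatocytes, the cells that receive portal blood first, whereas ammonia that passes them is bound as glutamine by pericentral hepatocytes at the other end of the lobule. Genes of amino acid breakdown in the liver respond to diet, fasting and hormones such as glucagon and glucocorticoids.

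Library totals lay between 13834682 and 16553616 counts in Trad-KAPA and between 10724672 and 14104236 counts in 3’-LEXO, and the lowest count of any of the 10 genes in a library was 638. A level in CPM is a gene's count after scaling the library to a total of 1000000 counts. All 10 hepatocyte markers (Alb, Ttr, Apoa1 and others) were tested in both kits, and their summed level was 140100 to 175100 CPM in Trad-KAPA and 90660 to 114500 CPM in 3’-LEXO. On the iron-loaded diet, the libraries of mouse 1 stood apart from those of mice 2 and 3, with chi-square values of 54.7 to 66.1 per degree of freedom between counts, whereas mice 2 and 3 differed by 6.46 (Trad-KAPA) or 6.47 (3’-LEXO) and pairs of control mice by 20.2 to 39.8. Iron-loaded mice 2 and 3 were counted as separate mice, as labelled, and why they were so alike was not tested. As a check on the diet labels, Hamp, the gene of the iron hormone hepcidin, had 44.0 to 515 CPM on the control diet and 1026 to 1326 CPM on the iron-loaded diet in Trad-KAPA (log2 fold change 2.36, edgeR adjusted p = 0.0667) and 81.0 to 528 against 1272 to 1633 CPM in 3’-LEXO (2.53, adjusted p = 0.0425). Bmp6, which signals iron stores to hepatocytes, rose from 3.37 ± 0.488 to 19.0 ± 2.64 CPM (SD, n = 3 mice per diet) in Trad-KAPA (2.42, adjusted p = 0.000505) and had too few counts to be tested in 3’-LEXO. Of the iron response list, 5 genes rose and 1 fell of 10 tested in Trad-KAPA, and 4 rose and 1 fell of 9 tested in 3’-LEXO. Without control mouse 3, 3 genes of this list passed with Trad-KAPA libraries and 0 with those of 3’-LEXO, where leaving out iron-loaded mouse 3 also left 0.

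RefSeq promoters of GRCm38.p6, from 250 bases before to 50 bases after the RefSeq start of a gene, were available for 4 of the 10 genes. All 4 are shown. For Ass1 and Hsd17b13 the RefSeq start differs from the 5’ end of the gene coordinates given below. Otc, Ass1 and Hal had lower levels in every iron-loaded mouse than in any control mouse in both kits, and Hsd17b13 had higher levels. Capitals mark matches, on either strand, to the C/EBP letters TTNNGNAA, to the core TGACG of the cyclic AMP response element and to the TATA box letters TATAAA. The core TGTTCT of the glucocorticoid response element was also searched on both strands and was not found in these 4 windows.
Otc, chrX:10252055-10252354, plus strand: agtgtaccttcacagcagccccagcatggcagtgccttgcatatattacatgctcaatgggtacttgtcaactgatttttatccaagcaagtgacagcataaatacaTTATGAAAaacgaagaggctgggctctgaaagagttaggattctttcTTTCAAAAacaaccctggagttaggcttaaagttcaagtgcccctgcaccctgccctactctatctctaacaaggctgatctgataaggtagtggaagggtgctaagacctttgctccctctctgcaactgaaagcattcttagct
Ass1, chr2:31470020-31470319, plus strand: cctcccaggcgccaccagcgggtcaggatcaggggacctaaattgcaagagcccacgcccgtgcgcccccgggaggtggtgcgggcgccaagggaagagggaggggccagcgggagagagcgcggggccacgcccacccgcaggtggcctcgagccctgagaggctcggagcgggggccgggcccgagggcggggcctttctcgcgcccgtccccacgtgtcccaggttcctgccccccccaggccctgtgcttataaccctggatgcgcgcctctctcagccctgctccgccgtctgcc
Hal, chr10:93488518-93488817, plus strand: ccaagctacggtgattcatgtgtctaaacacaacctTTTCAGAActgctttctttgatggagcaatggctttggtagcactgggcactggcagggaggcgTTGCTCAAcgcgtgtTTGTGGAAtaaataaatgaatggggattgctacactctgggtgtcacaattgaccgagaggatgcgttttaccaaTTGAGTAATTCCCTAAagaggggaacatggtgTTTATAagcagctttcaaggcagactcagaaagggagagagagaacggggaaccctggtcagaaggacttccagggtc
Hsd17b13, chr5:103977339-103977638, minus strand: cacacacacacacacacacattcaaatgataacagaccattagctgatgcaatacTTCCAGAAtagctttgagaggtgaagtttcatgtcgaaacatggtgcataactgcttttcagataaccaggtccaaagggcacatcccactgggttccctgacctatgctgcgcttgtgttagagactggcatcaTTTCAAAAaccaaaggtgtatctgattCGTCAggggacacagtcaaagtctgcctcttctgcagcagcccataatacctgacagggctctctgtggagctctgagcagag

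The C/EBP letters were found 2 times in Otc, 5 times in Hal, 2 times in Hsd17b13 and 0 times in Ass1. In Hal the matches at positions -60 and -52 from the gene start lie next to each other and form 1 run of capitals. The TATA letters were found in Hal alone of the 4, on the minus strand at -28, and TGACG in Hsd17b13 alone, on the minus strand at -33, where it reads CGTCA. Of all 32851 RefSeq promoters of this length, 40.7% hold the C/EBP letters, 20.8% TGACG, 19.0% TGTTCT and 13.6% TATAAA. A match is a description of letters and not a binding site.

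The first comparison asked how the level of each gene differed between the diets within a kit. In Trad-KAPA, Gls2, Ass1 and Otc fell on the iron-loaded diet, to 0.454, 0.611 and 0.614 of the control level, and the other 7 genes did not pass the test. In 3’-LEXO, Gls2 and Ass1 fell, to 0.446 and 0.644, and the other 8 did not pass. With edgeR 0 of the 10 genes rose in either kit, with DESeq2 also 0, and at an unadjusted p under 0.05 only Hsd17b13 in 3’-LEXO was higher. Over all genes tested by edgeR's quasi-likelihood test with Benjamini-Hochberg adjustment, 17.1% passed in Trad-KAPA, 8.77% as higher and 8.37% as lower, and 6.10% passed in 3’-LEXO, 3.17% as higher and 2.92% as lower. Of the 12229 genes tested by both kits, 2.55% fell in both. At an unadjusted p under 0.05, 4 of the 10 genes passed in Trad-KAPA and 5 in 3’-LEXO, against 34.3% and 25.0% of all genes. Over the 10 genes the median log2 fold change was -0.51 in Trad-KAPA but -0.32 in 3’-LEXO, beside 0.02 and 0.01 over all genes tested. In bulk RNA, fewer cells of a type and less RNA per cell cannot be told apart, and the mice of a group shared a cage, so that p-values measure the spread between these mice only.

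**Figure D1:**
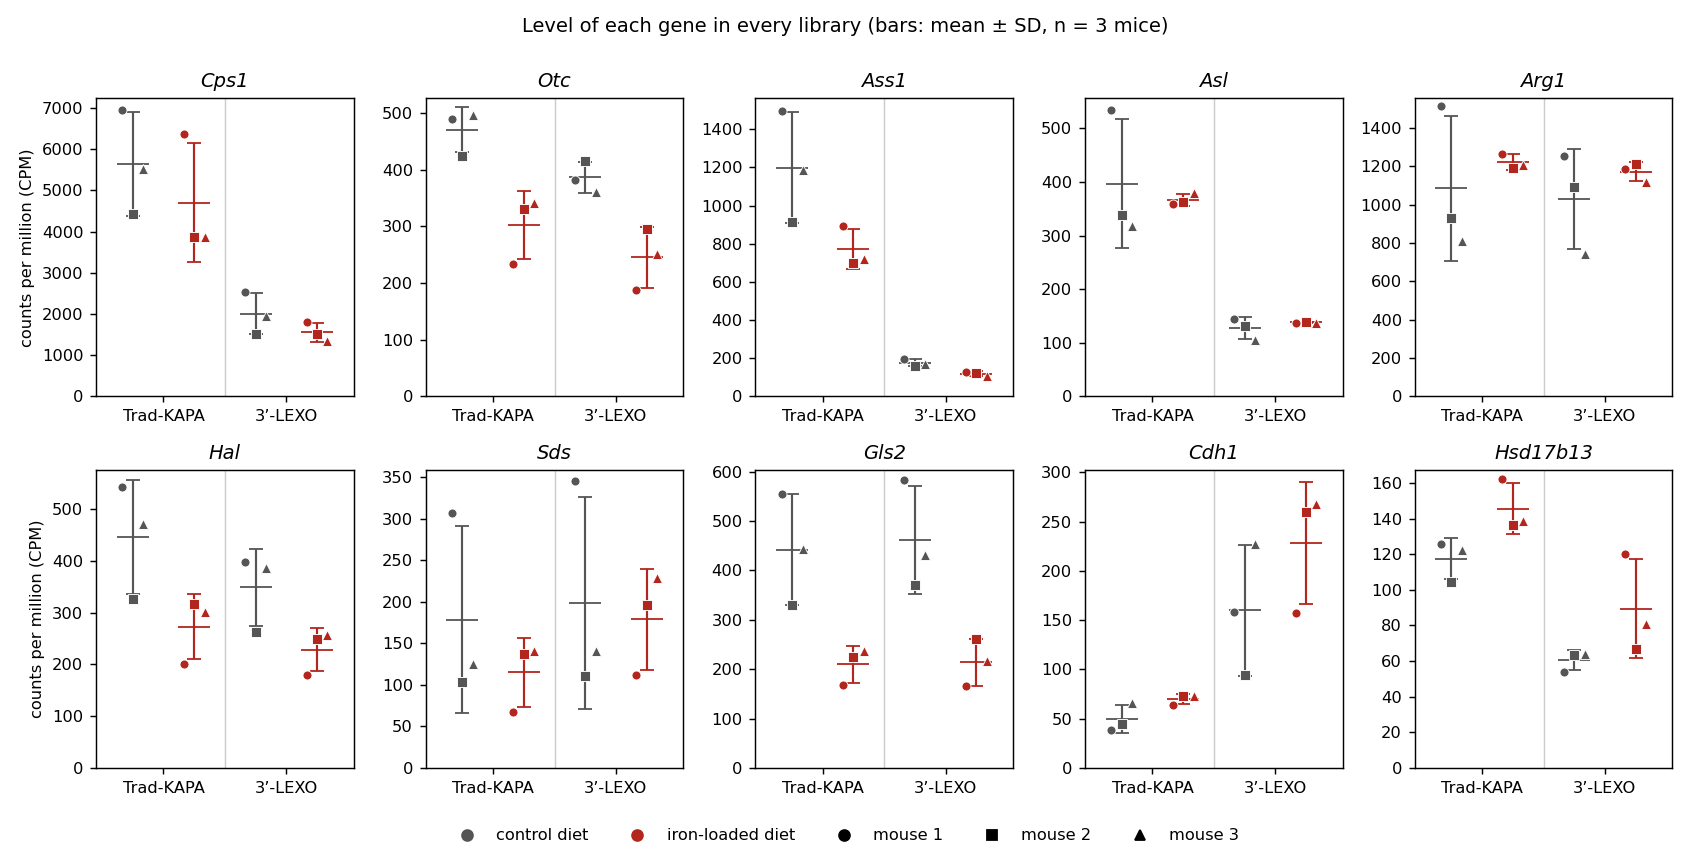
Level of each of the 10 genes in CPM (vertical axis, from 0) in every library, by kit and diet, with bars for the mean ± SD of 3 mice. Iron-loaded mice lay below all control mice in both kits for Otc, Ass1, Hal and Gls2 and above them for Hsd17b13.

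Cps1 (ENSMUSG00000025991, chromosome 1 of GRCm38 from 67123026 to 67231259, plus strand) encodes carbamoyl phosphate synthetase, the mitochondrial enzyme that fixes ammonia in the entry step of the urea cycle. Its merged exons cover 5555 bp. In Trad-KAPA, Cps1 had 6954, 4437 and 5524 CPM in control mice 1, 2 and 3 and 6362, 3861 and 3878 CPM in iron-loaded mice 1, 2 and 3. In 3’-LEXO it had 2521, 1525 and 1959 CPM on the control diet and 1805, 1507 and 1337 CPM on the iron-loaded diet. The diets overlapped in both kits, with mouse 1 the highest of each diet. Iron-loaded over control, the log2 fold change was -0.34 ± 0.23 (SE) with a 95% interval of -0.88 to 0.19 in Trad-KAPA (adjusted p = 0.337) and -0.43 ± 0.22, from -0.93 to 0.06, in 3’-LEXO (adjusted p = 0.254).

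Otc (ENSMUSG00000031173, chromosome X from 10252305 to 10321024, plus strand) encodes ornithine transcarbamylase, which joins carbamoyl phosphate to ornithine and makes citrulline in the mitochondrion. In Trad-KAPA, Otc had 488.5, 424 and 497 CPM in the control mice and 233, 331 and 341 CPM in the iron-loaded mice. In 3’-LEXO the values were 381, 416 and 361 CPM and 188, 296 and 252 CPM. Every iron-loaded mouse lay below every control mouse in both kits, and iron-loaded mouse 1 was the lowest. Otc fell in Trad-KAPA by 0.70 ± 0.18 on the log2 scale (adjusted p = 0.0336). In 3’-LEXO the log2 fold change was -0.71 ± 0.19, and the adjusted p was 0.0594. Without iron-loaded mouse 1 the log2 fold change was -0.52 in Trad-KAPA (adjusted p = 0.0146) and -0.53 in 3’-LEXO (adjusted p = 0.0599). The Trad-KAPA call was lost without any 1 of the other 5 mice (adjusted p from 0.0556 without iron-loaded mouse 3 to 0.109 without control mouse 3), and the 3’-LEXO value passed with DESeq2 (adjusted p = 0.0116) and without iron-loaded mouse 2 (0.0437).

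Ass1 (ENSMUSG00000076441, chromosome 2 from 31470207 to 31520672, plus strand) encodes argininosuccinate synthase, which joins citrulline and aspartate in the cytosol. In Trad-KAPA, Ass1 had 1493, 913 and 1187 CPM in the control mice and 890.2, 699.5 and 720.2 CPM in the iron-loaded mice. In 3’-LEXO it had 195, 162 and 171 CPM against 128, 123 and 104 CPM. The diets did not overlap in either kit, although control mouse 2 and iron-loaded mouse 1 were close in Trad-KAPA. Ass1 fell by 0.71 ± 0.19 on the log2 scale in Trad-KAPA (adjusted p = 0.0346) and by 0.63 ± 0.15 in 3’-LEXO (adjusted p = 0.0395). Without iron-loaded mouse 1 the values were -0.79 (adjusted p = 0.019) and -0.68 (adjusted p = 0.0296). The Trad-KAPA call was lost without control mouse 1 (adjusted p = 0.106), control mouse 3 (0.0986), iron-loaded mouse 2 (0.105) or iron-loaded mouse 3 (0.101), and the 3’-LEXO call without any mouse other than iron-loaded mouse 1 (from 0.0624 without control mouse 2 to 0.14 without iron-loaded mouse 3). With scaling to library totals alone the adjusted p was 0.0524 with Trad-KAPA libraries and 0.051 with those of 3’-LEXO.

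Asl (ENSMUSG00000025533, chromosome 5 from 130011258 to 130029247, minus strand) encodes argininosuccinate lyase, which releases arginine and fumarate. In Trad-KAPA, Asl had 535, 338 and 317 CPM in the control mice and 359, 362 and 380 CPM in the iron-loaded mice, and in 3’-LEXO it had 145, 131 and 106 CPM against 138, 139 and 137.5 CPM. The iron-loaded mice lay inside the range of the control mice in both kits, and control mouse 1 was the highest. For Asl the log2 fold change was -0.17 ± 0.19 in Trad-KAPA (95% interval -0.60 to 0.25, adjusted p = 0.545) and 0.06 ± 0.15 in 3’-LEXO (-0.27 to 0.39, adjusted p = 0.831), and Asl was the 1 gene of the 10 whose sign differed between the kits.

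Arg1 (ENSMUSG00000019987, chromosome 10 from 24915221 to 24927484, minus strand) encodes liver arginase, which cuts arginine into urea and ornithine. In Trad-KAPA, Arg1 had 1516, 931 and 812 CPM in the control mice and 1267, 1190 and 1207 CPM in the iron-loaded mice. In 3’-LEXO the values were 1253, 1091 and 742 CPM and 1189, 1214 and 1117 CPM. Here too the iron-loaded mice lay within the control range and close to each other. For Arg1 the log2 fold change was 0.11 ± 0.21 in Trad-KAPA (95% interval -0.37 to 0.59, adjusted p = 0.748) and 0.14 ± 0.20 in 3’-LEXO (-0.30 to 0.58, adjusted p = 0.704). Of the 5 enzymes of the cycle, Cps1, Asl and Arg1 had intervals that included 0 in both kits, and the intervals of Otc and Ass1 lay below 0.

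Gls2 (ENSMUSG00000044005, chromosome 10 from 128194457 to 128210004, plus strand) encodes the glutaminase of the liver, which releases ammonia from glutamine in periportal mitochondria. Of the 3474 bp of its exons, 97 bp overlap Spryd4 on the other strand. In Trad-KAPA, Gls2 had 554, 329 and 443 CPM in the control mice and 167, 225 and 237 CPM in the iron-loaded mice. In 3’-LEXO it had 583, 371 and 432 CPM against 166, 260.4 and 216 CPM. Every iron-loaded mouse lay below every control mouse in both kits, and mouse 1 was the highest on the control diet and the lowest on the iron-loaded diet. Gls2 fell by 1.14 ± 0.22 on the log2 scale in Trad-KAPA (adjusted p = 0.0138) and by 1.16 ± 0.23 in 3’-LEXO (adjusted p = 0.0214), the largest differences among the 10 genes. Without iron-loaded mouse 1 it fell by 0.97 (adjusted p = 0.0101) and 1.00 (adjusted p = 0.0183). The call was lost in Trad-KAPA without control mouse 3 (adjusted p = 0.0513) and in 3’-LEXO without control mouse 1 (0.0767), control mouse 3 (0.0746) or iron-loaded mouse 3 (0.0681). Spryd4 had 31.1 ± 5.07 to 36.3 ± 9.06 CPM (mean ± SD per kit and diet, n = 3) and did not pass the test in either kit.

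Hal (ENSMUSG00000020017, chromosome 10 from 93488768 to 93519304, plus strand) encodes histidine ammonia-lyase, which releases ammonia from histidine. In Trad-KAPA, Hal had 543, 327 and 470.5 CPM in the control mice and 201, 316 and 302 CPM in the iron-loaded mice. In 3’-LEXO the values were 397, 263 and 387 CPM and 180, 248.8 and 257 CPM. The diets did not overlap, but control mouse 2 lay just above iron-loaded mice 2 and 3 in both kits. Hal had a log2 fold change of -0.77 ± 0.24 in Trad-KAPA (adjusted p = 0.0596) and -0.67 ± 0.23 in 3’-LEXO (adjusted p = 0.102). Hal passed the test with DESeq2 (adjusted p = 0.0108 and 0.0463) and in edgeR without the filter on low counts (0.00458 and 0.00499). The next enzymes of histidine breakdown in the list fixed for amino acids, Uroc1 and Amdhd1, are named here after their values were seen, and they fell in Trad-KAPA, by 0.98 ± 0.26 (adjusted p = 0.038) and 0.66 ± 0.16 (adjusted p = 0.0263), with values in 3’-LEXO of -0.95 ± 0.28 (adjusted p = 0.0718) and -0.44 ± 0.15 (adjusted p = 0.108). Ftcd, which acts after them in the same pathway and is also named after its values were seen, did not pass in either kit (-0.47 ± 0.15, adjusted p = 0.0625, and -0.49 ± 0.22, adjusted p = 0.201), and its diets overlapped.

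Sds (ENSMUSG00000029597, chromosome 5 from 120476526 to 120483932, plus strand) encodes serine dehydratase, which turns serine into pyruvate and ammonia. In Trad-KAPA, Sds had 308, 104 and 125 CPM in the control mice and 67.4, 138 and 140.5 CPM in the iron-loaded mice, and in 3’-LEXO it had 345, 111 and 141 CPM against 112, 197 and 229 CPM. Control mouse 1 lay far above the other control mice in both kits, and the diets overlapped. Sds had a log2 fold change of -0.68 ± 0.43 in Trad-KAPA (adjusted p = 0.291) and -0.20 ± 0.41 in 3’-LEXO (adjusted p = 0.801). Without control mouse 1 it was -0.07 in Trad-KAPA (adjusted p = 0.914) and 0.44 in 3’-LEXO (adjusted p = 0.484), and without iron-loaded mouse 1 it was -0.39 and 0.06. Of the 1694 bp of Sds exons, 360 bp overlap Plbd2 on the other strand, and whether counting used the strand is not given in the sources used here. Plbd2 rose in Trad-KAPA, from 85.0 ± 8.25 to 126 ± 6.06 CPM (log2 fold change 0.49, adjusted p = 0.0243), and had 89.1 ± 10.7 and 115 ± 17.0 CPM in 3’-LEXO (0.31, adjusted p = 0.302), and its part in the Sds values was not tested.

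Cdh1 (ENSMUSG00000000303, chromosome 8 from 106603351 to 106670246, plus strand) encodes E-cadherin, an adhesion protein of epithelia that in the liver is concentrated on periportal hepatocytes and bile duct cells. In Trad-KAPA, Cdh1 had 38.5, 44.5 and 65.6 CPM in the control mice and 64.3, 73.0 and 73.4 CPM in the iron-loaded mice. In 3’-LEXO it had 159, 94.0 and 227 CPM against 157, 259.9 and 267 CPM. The diets overlapped in both kits, through control mouse 3 and iron-loaded mouse 1. In 3’-LEXO control mouse 1 (158.7 CPM) also lay just above iron-loaded mouse 1 (157.3 CPM). Cdh1 had a log2 fold change of 0.43 ± 0.21 in Trad-KAPA (95% interval -0.05 to 0.91, adjusted p = 0.185) and 0.45 ± 0.33 in 3’-LEXO (-0.29 to 1.18, adjusted p = 0.429), and without control mouse 3 the Trad-KAPA value was 0.72 with an adjusted p of 0.0329. The summed level of 12 cholangiocyte markers was 65.4 to 68.5 CPM on the control diet and 77.5 to 82.9 CPM on the iron-loaded diet in Trad-KAPA, and 46.4 to 54.5 and 58.6 to 60.4 CPM in 3’-LEXO. Spp1 is part of these sums, and its change was at least about as large as theirs. It had 18.9 ± 1.53 and 31.2 ± 2.16 CPM on the control and iron-loaded diets in Trad-KAPA, and 19.6 ± 2.04 and 33.1 ± 0.838 CPM in 3’-LEXO. Of the cholangiocyte markers 2, Spp1 and Muc1, rose of 6 tested in Trad-KAPA and of 7 tested in 3’-LEXO, and 0 fell in either kit. Sox9 of the same list, named after its values were seen, was lower in every iron-loaded mouse than in every control mouse in both kits. It did not pass the test (-0.57 ± 0.22, adjusted p = 0.106, in Trad-KAPA and -0.66 ± 0.18, adjusted p = 0.0569, in 3’-LEXO). Without single mice, 1 to 2 of the cholangiocyte markers passed in Trad-KAPA and 0 (without any 1 control mouse or iron-loaded mouse 3) to 2 in 3’-LEXO. The defining markers Krt19 and Krt7 were under 0.9 CPM in every library, and Cftr was at 0 in at least 1 library of each kit. Their part in the Cdh1 values was not tested.

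Hsd17b13 (ENSMUSG00000034528, chromosome 5 from 103955440 to 103977410, minus strand) encodes a hydroxysteroid dehydrogenase relative on the surface of lipid droplets. In Trad-KAPA, Hsd17b13 had 126, 104 and 122 CPM in the control mice and 162, 136 and 138 CPM in the iron-loaded mice. In 3’-LEXO the values were 54.0, 63.6 and 63.8 CPM and 120.3, 67.0 and 81.0 CPM. It was the 1 gene of the 10 with every iron-loaded mouse above every control mouse, in both kits, a pattern that 13.7% of the genes tested in both kits showed (24.7% in Trad-KAPA and 18.5% in 3’-LEXO). Iron-loaded mouse 1 was the highest. Hsd17b13 had a log2 fold change of 0.24 ± 0.12 in Trad-KAPA (adjusted p = 0.192) and 0.50 ± 0.20 in 3’-LEXO (adjusted p = 0.16), and without iron-loaded mouse 1 it was 0.19 and 0.25. Its neighbour in the family, Hsd17b11, also on lipid droplets, is named after its values were seen and had 128 ± 7.58 and 115 ± 14.6 CPM in Trad-KAPA and 179 ± 4.86 and 169 ± 6.75 CPM in 3’-LEXO on the control and iron-loaded diets (adjusted p = 0.288 and 0.575).

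**Figure D2:**
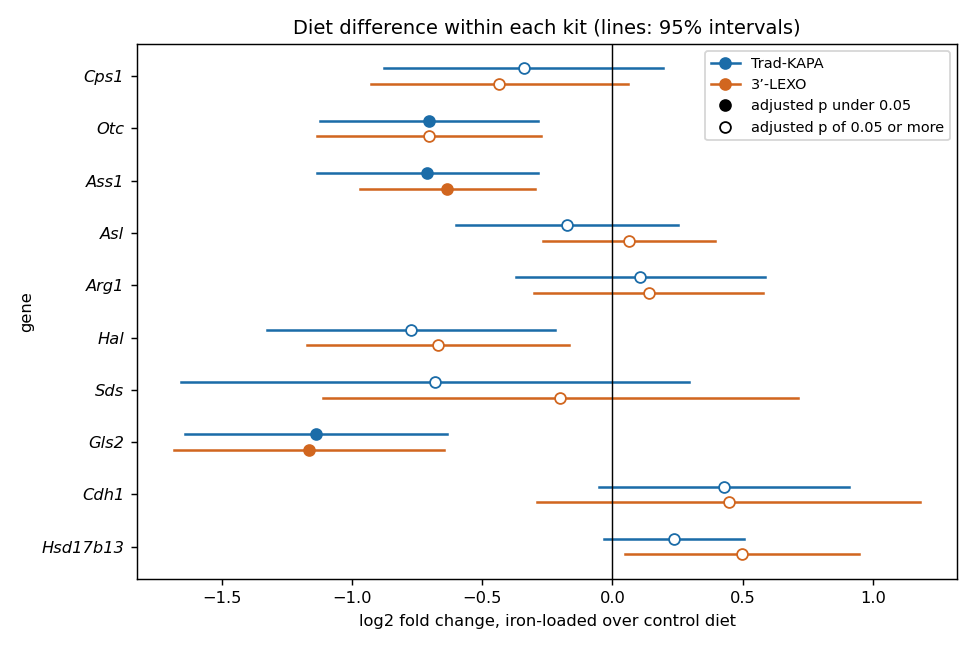
The log2 fold change of each gene, iron-loaded over control diet (horizontal axis), in Trad-KAPA and 3’-LEXO, with 95% intervals and filled points for an adjusted p under 0.05. Otc, Ass1, Hal and Gls2 lay below 0 with their intervals in both kits, and Gls2 was the lowest at -1.14 and -1.16.

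In total, 4 of the 10 genes (Otc, Ass1, Hal and Gls2) were lower in every iron-loaded mouse than in every control mouse in both kits, against 9.14% of the genes tested in both (16.6% of those tested in Trad-KAPA and 12.8% of those in 3’-LEXO). Among the mice of a diet, mouse 1 was often at the edge of the range. On the control diet it had the highest level of 8 of the 10 genes in Trad-KAPA and of 7 in 3’-LEXO, and control mouse 2 had the lowest level of 7 and 6. On the iron-loaded diet, mouse 1 had the lowest level of 6 and 5 of the genes, but the highest level of Cps1, Ass1 and Hsd17b13 in both kits. The 10 genes together took 0.795% to 1.26% of the counts of a control library and 0.733% to 0.977% of an iron-loaded one in Trad-KAPA, and 0.423% to 0.603% and 0.400% to 0.431% in 3’-LEXO, and these ranges overlapped.

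The next comparison asked whether the kits differed in the diet effect, by the term for diet and kit together in a fit of 12 libraries. The interaction passed for 0 of the 10 genes and for 0% of the 14384 genes tested with edgeR, and DESeq2 also called 0. At an unadjusted p under 0.05 it passed for 0 of the 10 genes and for 402 genes, or 2.79%, in edgeR. With the mouse as a replicate block edgeR called 5 genes, none of them among the 10. Otc, which fell in Trad-KAPA and missed the threshold in 3’-LEXO, had a difference of effects of 0.00 ± 0.27 on the log2 scale, 3’-LEXO minus Trad-KAPA, with a 95% interval of -0.59 to 0.59. For Ass1 the difference was 0.07 (-0.45 to 0.60) and for Gls2 -0.03 (-0.77 to 0.71). Sds had the largest difference, at 0.47 (-0.98 to 1.93), followed by Hsd17b13 at 0.26 (-0.27 to 0.79) and Asl at 0.24 (-0.28 to 0.75). These intervals come from a fit without the mouse as a term, so they include the spread between mice that both kits share. With the mouse as a block the difference of Sds was 0.51 ± 0.12 (unadjusted p = 0.00036, adjusted p = 0.178), that of Hsd17b13 0.23 ± 0.15 (adjusted p = 0.81) and that of Asl 0.21 ± 0.12 (adjusted p = 0.763).

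The level that a kit gave the same RNA was then compared within mice, with the mouse as a block. Libraries with the same diet and number were taken as those of the same mouse. In CPM, 6 of the 10 genes were lower in 3’-LEXO, 2 were higher and 2, Arg1 and Gls2, did not pass the test, against 40.8% lower and 41.9% higher, 82.6% in all, of 14384 genes. Ass1 differed most. Its log2 ratio of 3’-LEXO over Trad-KAPA was -2.94, -2.50 and -2.80 in control mice 1, 2 and 3 and -2.80, -2.51 and -2.79 in iron-loaded mice 1, 2 and 3. It was lower in 3’-LEXO in 6 of 6 mice, 6.58-fold by the fit (log2 -2.72 ± 0.06, adjusted p = 8.55e-17), and 3.49% of the 14282 genes with a length had a lower ratio.

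Cps1 was 2.89-fold lower in 3’-LEXO (-1.53 ± 0.06, adjusted p = 6.15e-14) and Asl 2.84-fold lower (-1.51 ± 0.07, adjusted p = 3.58e-13), again in 6 of 6 mice each. Hsd17b13 was 1.79-fold lower (-0.84 ± 0.08, adjusted p = 2.44e-08). Smaller differences passed for Otc (-0.29 ± 0.06, adjusted p = 0.000237) and Hal (-0.29 ± 0.06, adjusted p = 0.000105). In the other direction, Cdh1 was 3.16-fold higher in 3’-LEXO (1.66 ± 0.10, adjusted p = 4.56e-11), with log2 ratios of 2.04, 1.08 and 1.79 in the control mice and 1.29, 1.83 and 1.87 in the iron-loaded mice. Sds was higher by 0.40 ± 0.08 (adjusted p = 0.000285), with ratios of 0.17, 0.10 and 0.17 in the control mice and 0.73, 0.51 and 0.71 in the iron-loaded mice, so that the diets did not overlap in this ratio, a pattern noted after the values were seen, while its interaction did not pass the test. Without the mouse as a block, Otc, Hal and Sds did not pass (adjusted p = 0.0549, 0.125 and 0.275). Arg1 had -0.05 ± 0.06 (adjusted p = 0.398) and Gls2 0.05 ± 0.06 (adjusted p = 0.415), with signs that differed between mice. When Trad-KAPA levels were divided by exon length, 2.99% of genes had a lower ratio than Ass1 and 90.4% a lower ratio than Cdh1.

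**Figure D3:**
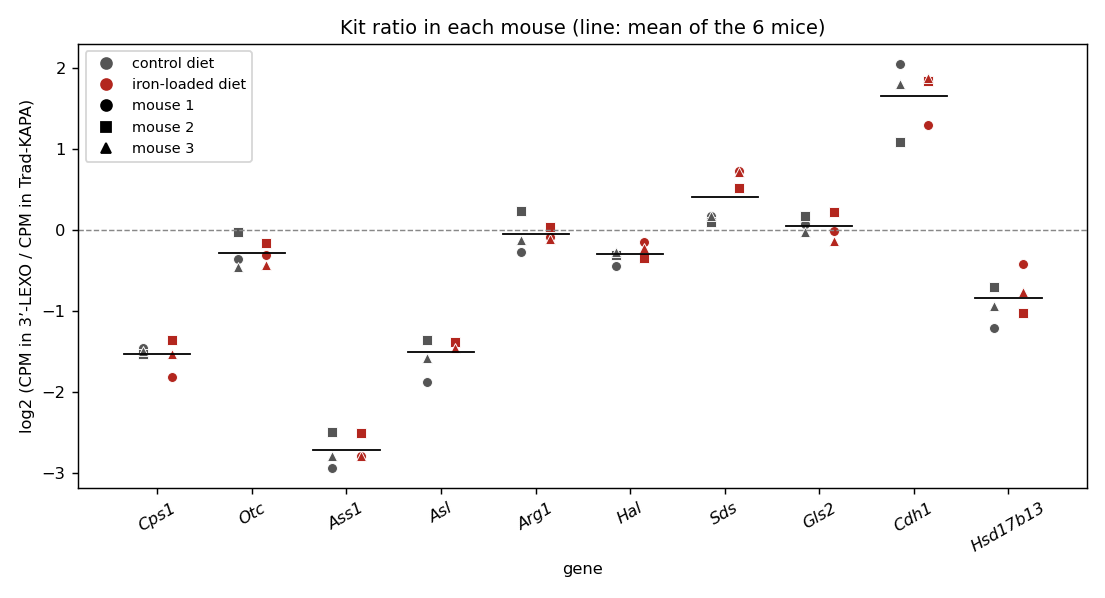
The log2 ratio of CPM in 3’-LEXO over Trad-KAPA (vertical axis) for each gene in each of the 6 mice, with a line for the mean. All 6 mice lay below 0 for Cps1, Otc, Ass1, Asl, Hal and Hsd17b13 and above 0 for Sds and Cdh1.

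The order of the levels of the genes was compared per length. In Trad-KAPA, reads come from the whole transcript, so CPM were divided by the kb of merged exons, while 3’-LEXO gives about 1 read per transcript and its CPM were not divided. Cps1 was the highest in Trad-KAPA at 931 ± 237 CPM per kb (SD, n = 6 mice), followed by Arg1 at 518 ± 113 and Ass1 at 408 ± 126. Then came a group of 6 genes, with Gls2 at 93.8 ± 42.5, Otc at 91.0 ± 24.2, Sds at 86.8 ± 49.1, Asl at 79.0 ± 16.1, Hal at 64.8 ± 22.4 and Hsd17b13 at 61.0 ± 8.94 CPM per kb. Cdh1 was the lowest at 13.1 ± 3.24. The ranges over the 6 mice did not overlap between Cps1 and Arg1, between Ass1 and Gls2 and between Hsd17b13 and Cdh1, and all other neighbours overlapped.

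In 3’-LEXO, Cps1 was also the highest at 1776 ± 428 CPM, followed by Arg1 at 1101 ± 186. Gls2 was at 338 ± 155, Otc at 316 ± 86.3, Hal at 289 ± 85.4, Cdh1 at 194 ± 68.4, Sds at 189 ± 90.0, Ass1 at 147 ± 34.4, Asl at 133 ± 14.0 and Hsd17b13 at 75.0 ± 23.9 CPM. Here the ranges did not overlap between Cps1 and Arg1 and between Arg1 and Gls2, and all other neighbours overlapped, although Asl was above Hsd17b13 in 6 of 6 mice. Only Cps1 and Arg1 had the same rank in both kits. Ass1 was at rank 3 in Trad-KAPA and rank 8 in 3’-LEXO, and Cdh1 at rank 10 and rank 6. The highest gene exceeded the lowest 71.1-fold in Trad-KAPA and 23.7-fold in 3’-LEXO.

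**Figure D4:**
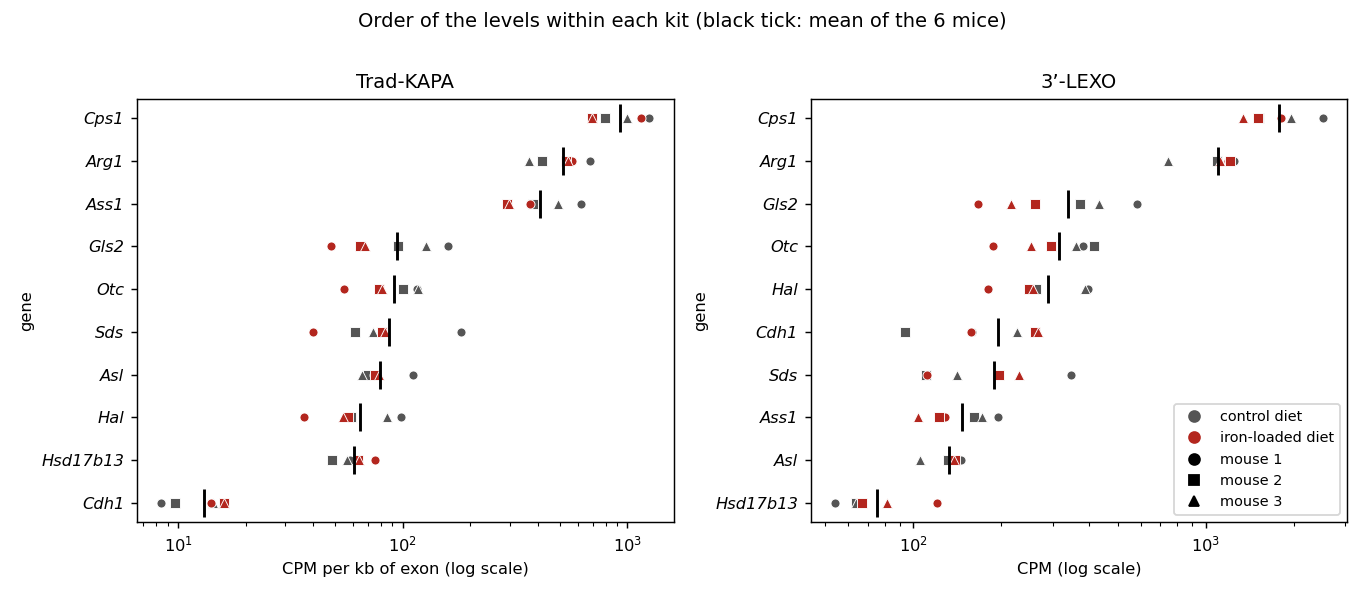
Levels of the 10 genes in each mouse, in CPM per kb of exon in Trad-KAPA and in CPM in 3’-LEXO, on logarithmic horizontal axes, ordered from the highest mean (black tick) to the lowest. Cps1 and Arg1 led in both kits, and Ass1 was at rank 3 in Trad-KAPA and rank 8 in 3’-LEXO.

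The other genes of the pathway were examined as fixed lists, which are described by counts and medians. Over all genes tested, 8.77% rose and 8.37% fell in Trad-KAPA, and 3.17% rose and 2.92% fell in 3’-LEXO. The counts of every list stand beside these shares, and whether a list differs from them was not tested. Of 21 partners of the urea cycle and ammonia handling, 3 rose and 3 fell in Trad-KAPA, and 0 rose and 1 fell in 3’-LEXO, with a median log2 fold change of 0.01 and -0.03. Oat, which moves the amino group of ornithine and is itself pericentral, fell in both kits, from 500, 341 and 567 CPM in the control mice to 184, 147 and 146 CPM in the iron-loaded mice in Trad-KAPA (-1.64 ± 0.20, adjusted p = 0.00365) and from 378, 332 and 431 to 167, 112 and 111 CPM in 3’-LEXO (-1.62 ± 0.20, adjusted p = 0.00307). The range of Oat on the iron-loaded diet lay far below that on the control diet in both kits. Car5a, the mitochondrial carbonic anhydrase that supplies bicarbonate to Cps1, fell in Trad-KAPA, from 123 ± 3.84 to 72.6 ± 11.9 CPM (adjusted p = 0.0107), and had 56.1 ± 2.60 and 40.7 ± 4.30 CPM in 3’-LEXO (adjusted p = 0.0576). Arg2, the mitochondrial arginase, rose in Trad-KAPA from 1.08 ± 0.182 to 3.21 ± 0.973 CPM (adjusted p = 0.0146), and the alanine aminotransferase Gpt2 rose there from 293 ± 82.7 to 669 ± 294 CPM (adjusted p = 0.0321). Without control mouse 2 the list had 2 genes past the threshold in Trad-KAPA, and without control mouse 3 it had 3. In 3’-LEXO, Arg2 had 2.78 ± 0.619 and 4.38 ± 1.24 CPM (adjusted p = 0.234) and Gpt2 465 ± 163 and 1096 ± 413 CPM (adjusted p = 0.0506).

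Of 29 enzymes of amino acid degradation, 0 rose and 14 fell in Trad-KAPA and 1 rose and 7 fell in 3’-LEXO, with a median log2 fold change of -0.47 and -0.45, and 7 fell in both kits. Ddc, which decarboxylates aromatic amino acids, fell by 1.13 ± 0.21 in Trad-KAPA (adjusted p = 0.0122) and by 1.12 ± 0.23 in 3’-LEXO (adjusted p = 0.0258). Hpd and Hgd, successive steps of tyrosine breakdown with homogentisate between them, fell by 1.08 in Trad-KAPA each (adjusted p = 0.00591 and 0.0121) and by 0.98 and 0.92 in 3’-LEXO (adjusted p = 0.00819 and 0.0169). Haao, of the kynurenine pathway, fell by 0.99 and 1.07 (adjusted p = 0.0215 and 0.0245). The gene that rose in 3’-LEXO was Tat, the entry enzyme of tyrosine breakdown, with 363 ± 65.0 and 740 ± 246 CPM on the control and iron-loaded diets (adjusted p = 0.0477) and 619 ± 54.8 and 1206 ± 653 CPM in Trad-KAPA (adjusted p = 0.0808). Iron-loaded mouse 1 had 1021 CPM of Tat in 3’-LEXO, against 628 and 570 CPM in mice 2 and 3. In Trad-KAPA it had 1959 CPM, against 838 and 820 CPM. The 3’-LEXO call of Tat was lost whichever mouse was left out. When single mice were left out, 7 (without control mouse 1 or 3) to 18 genes of the list passed in Trad-KAPA and 1 (without control mouse 3) to 10 in 3’-LEXO.

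Of 20 other periportal markers, 1 rose and 4 fell in Trad-KAPA, and of the 19 tested in 3’-LEXO 0 rose and 3 fell, with a median of -0.28 and -0.35. The 3 that fell in both kits were Hsd17b6, a steroid dehydrogenase (-1.13 and -1.05, adjusted p = 0.0128 and 0.0202), Ctsc, a lysosomal peptidase (-0.84 and -0.77, adjusted p = 0.0235 and 0.0267), and Serpinf1, a secreted protein (-0.74 in both, adjusted p = 0.00839 and 0.0307). Of 20 pericentral markers, 1 rose and 4 fell in Trad-KAPA and 1 rose and 2 fell in 3’-LEXO, with a median of -0.18 and -0.19. Besides Oat, Cyp1a2, a cytochrome P450, fell (-0.73 and -0.76, adjusted p = 0.0106 and 0.033) and Gstm3, a glutathione transferase, rose (1.15 and 1.14, adjusted p = 0.00329 and 0.0158). Glul, the glutamine synthetase of pericentral cells, had 464 ± 64.2 and 495 ± 66.2 CPM in Trad-KAPA on the control and iron-loaded diets. In 3’-LEXO it had 587 ± 102 and 625 ± 71.2 CPM, and the diets overlapped in both kits. Its log2 fold change was 0.03 ± 0.17 (adjusted p = 0.926) and 0.04 ± 0.19 (adjusted p = 0.925). Without single mice, between 2 (without control mouse 1) and 6 of the other periportal and 3 to 7 of the pericentral markers passed in Trad-KAPA, and 0 (without control mouse 1) to 3 and 1 (without control mouse 1 or 3) to 5 in 3’-LEXO.

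Of 21 regulators of amino acid catabolism and zonation, 2 rose and 2 fell in Trad-KAPA and 0 rose and 2 fell in 3’-LEXO, with a median of -0.08 and -0.07. The forkhead factor Foxa2 fell in both kits, from 36.7 ± 9.23 to 24.3 ± 3.59 CPM (adjusted p = 0.0479) and from 144 ± 37.6 to 82.4 ± 11.0 CPM (adjusted p = 0.0408). Cebpb, of the C/EBP family, rose in Trad-KAPA from 99.3 ± 14.1 to 159 ± 2.00 CPM (adjusted p = 0.0141) and had 75.5 ± 20.6 and 147 ± 21.5 CPM in 3’-LEXO (adjusted p = 0.0518). Cebpa, of the same family and named after its values were seen, did not pass in either kit. It had 582 ± 126 and 523 ± 48.2 CPM in Trad-KAPA (adjusted p = 0.395) and 635 ± 213 and 599 ± 171 CPM in 3’-LEXO (adjusted p = 0.809). The part of either gene in the levels of the genes with printed promoters was not tested. Apc rose (0.60, adjusted p = 0.00786) and Foxo1 fell (-0.37, adjusted p = 0.043) in Trad-KAPA, and neither passed in 3’-LEXO. Of 18 partners of cadherin in the adherens junction, Vcl fell in Trad-KAPA (-0.42, adjusted p = 0.0417), 0 rose, and 0 of 18 passed in 3’-LEXO (1 at an unadjusted p under 0.05, and 0 with DESeq2), with a median of -0.01 and -0.05. Without single mice, 1 (without control mouse 2) to 6 regulators passed in Trad-KAPA and 0 (without control mouse 3 or iron-loaded mouse 2 or 3) to 4 in 3’-LEXO, and Vcl was lost without any mouse other than iron-loaded mouse 1.

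Of 21 lipid droplet genes and relatives of Hsd17b13, 19 were tested in each kit, and 1 rose and 6 fell in Trad-KAPA and 0 rose and 4 fell in 3’-LEXO, with a median of -0.30 and -0.34. Of the 4 that fell in both kits, Hsd17b6 was also counted among the other periportal markers. Rdh16, a retinol dehydrogenase, had 100.9, 87.5 and 91.2 CPM in the control mice and 3.14, 12.9 and 11.4 CPM in the iron-loaded mice in Trad-KAPA, and it fell by 3.40 ± 0.42 there (adjusted p = 0.00357) and by 3.26 ± 0.34 in 3’-LEXO (adjusted p = 0.00146). Plin2, the main coat protein of lipid droplets in hepatocytes, fell from 682 ± 89.9 to 273 ± 2.56 CPM (adjusted p = 0.00148) and from 543 ± 104 to 227 ± 4.86 CPM (adjusted p = 0.00393). Dhrs3, a retinal reductase, fell by 0.96 and 0.67 (adjusted p = 0.00806 and 0.0245). The gene that rose was Pnpla2, the triglyceride lipase of lipid droplets, by 0.62 ± 0.18 in Trad-KAPA (adjusted p = 0.0471), with 0.55 ± 0.21 in 3’-LEXO (adjusted p = 0.146). Positive values in both kits, as for Hsd17b13, were also found for Cidec, Plin4, Plin5 and Fitm2, which did not pass the test (0.13 to 1.12 in Trad-KAPA and 0.04 to 0.54 in 3’-LEXO), and these and Pnpla2 are named after their values were seen. Without control mouse 3, Trad-KAPA had 3 genes of the list past the threshold and 3’-LEXO had 2.

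**Figure D5:**
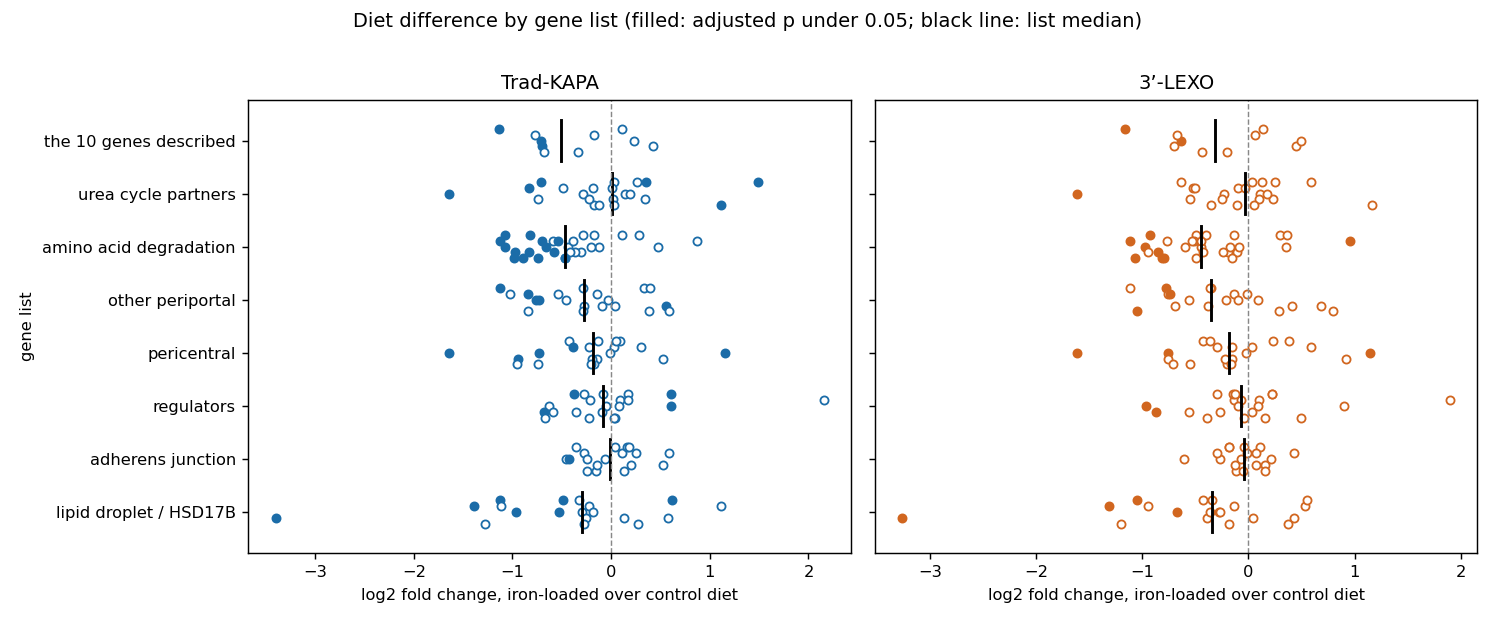
The log2 fold change, iron-loaded over control diet (horizontal axis), of every tested gene of the 10 genes described and of 7 fixed lists, in each kit, with filled points for an adjusted p under 0.05 and a black line for the list median. The median of amino acid degradation lay at -0.47 and -0.45 and that of the urea cycle partners at 0.01 and -0.03.

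Markers of other cells that the lobe could hold were read beside these results. Over all genes tested, 17.1% passed in Trad-KAPA and 6.10% in 3’-LEXO. Of 12 Kupffer cell and macrophage markers, 3 rose in Trad-KAPA and 2, Marco and Lyz2, in both kits, 0 fell, and their summed level was 535 to 838 CPM on the control diet and 948 to 1046 CPM on the iron-loaded diet in Trad-KAPA and 1212 to 1626 and 1642 to 1941 CPM in 3’-LEXO. Of 10 sinusoidal endothelial markers, 3 rose in Trad-KAPA and 1 rose and 2 fell in 3’-LEXO. Of 10 stellate cell markers, Des fell in Trad-KAPA and 0 passed in 3’-LEXO (3 at an unadjusted p under 0.05, 1 with DESeq2). Of 10 lymphocyte markers, 5 and 6 were tested and 0 passed with edgeR, with DESeq2 or at an unadjusted p under 0.05. Of 8 red cell markers, 5 were tested in each kit, Slc4a1 fell in Trad-KAPA, 0 passed in 3’-LEXO (5 at an unadjusted p under 0.05, 1 with DESeq2), and the summed level was 22.1 to 154 CPM on the control diet and 16.9 to 29.6 CPM on the iron-loaded diet in Trad-KAPA. Of the 10 hepatocyte markers, 0 passed in Trad-KAPA (3 at an unadjusted p under 0.05, 2 with DESeq2) and 1, Tat, rose in 3’-LEXO, with a median log2 fold change of 0.00 and 0.15. Without single mice, 1 to 3 endothelial, 0 to 2 stellate and 0 to 5 red cell markers (5 without control mouse 1) passed in Trad-KAPA, and 0 to 2 endothelial, 1 to 2 macrophage, 0 to 2 red cell and 0 hepatocyte markers in 3’-LEXO. The part of these cells in the values of Otc, Ass1, Hal and Gls2 was not tested.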

How the data were processed

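Liver RNA of 6 mice was sequenced in 12 libraries as single-end reads of 50 bp. Mapping by the authors used STAR 2.5.3a and GRCm38 (mm10), and the deposited count values are raw counts of reads mapped uniquely to exons, without normalization or removal of duplicates. The counting program and annotation release are not given in the sources used here. Library totals were 10724672 to 16553616 counts. Symbols, positions and merged exons came from GENCODE M21, where 26949 of the 27022 identifiers were found.

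Diets were compared within each kit in edgeR 4.0.16 (with limma 3.58.1 in R 4.3.3) using the quasi-likelihood F test after TMM scaling, filterByExpr and Benjamini-Hochberg adjustment at 0.05 over all genes tested (13151 for Trad-KAPA, 13301 for 3’-LEXO), and a gene under 0.05 is said to rise or fall. The difference of diet effects was the interaction over 12 libraries, and the kit difference was fitted with the mouse as a block. The fits were tested on simulated counts. The same number within a diet was taken to name the same mouse in both kits. This was checked on the deviations of each library from its group mean, whose correlation between the kits was 0.435 to 0.765 over 10326 genes and was highest with the same mouse in 4 of 6 mice, but not in iron-loaded mice 2 and 3. For each result, 10 alternatives were run, DESeq2 1.42.0 among them. Python 3.11.15, pandas 2.3.3, numpy 2.4.6 and matplotlib 3.10.9 made the summaries and plots.

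The 10 genes and the 15 lists beside them were chosen with earlier results of these data known. From each list, up to 4 genes called in both kits in 1 direction were named, by size of change, or, with fewer than 2 of these, those called in Trad-KAPA, and Hamp and Bmp6 from the iron response list.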

Additional observations from a re-analysis of the deposited data

How the results depend on the processing

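Which of the 10 genes passed the threshold depended on single mice. In Trad-KAPA 3 of the 10 genes were called, and 1 (Gls2) when counts of mice 2 and 3 on the iron-loaded diet were added together. With DESeq2 or without the filter on low counts 4 were called there, and 1 to 3 when single mice were left out. Without control mouse 3 the 1 call was Cdh1, as higher (edgeR adjusted p = 0.0329), and Otc, Ass1 and Gls2 were not called. In 3’-LEXO 2 were called, 1 with library totals only (Gls2), 4 with DESeq2, 4 without the filter on low counts, 0 with the replicate block, 1 (Gls2) with mice 2 and 3 summed, and 0 to 2 without single mice. The numbers do not pair mice across diets (correlation of deviations -0.0228 to 0.0708 in Trad-KAPA and -0.163 to 0.0964 in 3’-LEXO, with 1 of 3 numbers in each kit correlating best with its own), and in Trad-KAPA the replicate block also gave 3 calls. The interaction called 0 of the 10 genes in every setting. In the comparison of kits 8 were called, 5 with no replicate block, where the mouse was not a term, and 8 to 9 without single mice. The order of levels changed for 5 genes in Trad-KAPA with the longest transcript as length, for 5 without division by length, and for 2 with control mice only, and for 3 in 3’-LEXO with control mice only.

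The interaction of Otc was 0.023 with DESeq2 size factors in edgeR, 0.023 with DESeq2 and 0.0084 with mice 2 and 3 summed. That of Cdh1 was -0.058 with mice 2 and 3 summed, and the kit difference of Gls2 was -0.0067 without the filter. Without single mice, the diet effect ranged in Trad-KAPA from -0.29 to 0.080 for Asl and from -0.042 to 0.40 for Arg1, and in 3’-LEXO from -0.037 to 0.16 for Asl, from -0.034 to 0.30 for Arg1 and from -0.50 to 0.44 for Sds. The interaction ranged from -0.19 to 0.084 for Cps1, -0.091 to 0.12 for Otc, -0.0021 to 0.18 for Ass1, -0.082 to 0.17 for Arg1, -0.12 to 0.054 for Gls2 and -0.17 to 0.19 for Cdh1, and the kit difference of Gls2 from -0.025 to 0.073. The cause was not tested. Counting each mouse left out, there were 15 alternative settings for each gene and kit. Over these, 131 values of the diet effect in Trad-KAPA and 129 in 3’-LEXO kept their direction and side of the threshold. Genes that were not called in any setting are among these. Another 3 and 4 values changed sign, and 3 and 5 passed the threshold anew. The 13 and 12 values that fell short of it all belonged to the 3 genes called in Trad-KAPA and the 2 called in 3’-LEXO. With library totals in place of TMM, 61.5% of the calls over all genes in Trad-KAPA were higher on the iron-loaded diet, against 51.2%, and 59.9% in 3’-LEXO, against 52.0%.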
